A study of Mus musculus with 9 samples.

Results

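The genes described here are 10 receptors and adaptors of the myeloid cell surface, namely the IgG receptor genes Fcgr1, Fcgr2b, Fcgr3 and Fcgr4, the signalling adaptors Fcer1g and Tyrobp, and the paired immunoreceptor genes Lilrb4a, Lilr4b, Pirb and Sirpa. They were chosen as a family by name, by matching these symbols to the gene identifiers of the count lists, and all 10 of 10 were found among the 55487 identifiers. All 10 were also among the 14312 genes with enough counts to be tested. RNA was sequenced from RAW264.7 cells, an established macrophage line from BALB/c mice that carried a tumour virus, in 3 libraries each of wild-type, knock-out and ΔTAD cells.

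Wild-type cells carried no edit. In knock-out and ΔTAD cells a pair of CRISPR/Cas9 cuts removed the transactivation domain of C/EBPδ, a transcription factor of the CCAAT/enhancer-binding family encoded by Cebpd. In ΔTAD cells the reading frame was kept, so that the DNA-binding part remains. Out-of-frame clones served as knock-out cells. All edited cells went through transfection with guide and Cas9 plasmids, sorting for GFP, puromycin selection and growth from single cells, and none of the 9 cultures was stimulated. The series describes 3 independent clones, but no label ties a library to a clone, so that the p-values measure the spread between these libraries and a difference between clones cannot be told apart from one between genotypes. The comparisons ask how the steady-state RNA of these genes differs when C/EBPδ is lost and when it is kept without its activating domain.

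Fc gamma receptors bind the constant part of IgG and let macrophages recognise antibody-coated particles. The activating receptors encoded by Fcgr1, Fcgr3 and Fcgr4 signal through the FcRγ chain, the product of Fcer1g, whose cytoplasmic tail holds an immunoreceptor tyrosine-based activation motif (ITAM) that recruits the kinase Syk. FcγRIIB, the product of Fcgr2b, is the inhibitory IgG receptor and carries an inhibitory motif (ITIM) that recruits phosphatases, as do the products of Lilrb4a, Pirb and Sirpa. Tyrobp encodes DAP12, the adaptor of TREM2 and other activating receptors, and Lilr4b encodes a close relative of the Lilrb4a product.

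The motifs that set activating adaptors apart from inhibitory receptors were read from the annotated coding sequences (GENCODE annotation of GRCm38) and are shown because the genes on each side of this divide are compared here. An ITAM was searched as a spaced pair of tyrosine codons, each followed, past a pair of any codons, by leucine or isoleucine, and an ITIM as a tyrosine codon followed likewise by leucine, valine or isoleucine and preceded, with any codon between, by isoleucine, leucine, valine or serine. Both were sought after the most hydrophobic stretch of the product, taken as its membrane-spanning part. The tyrosine codons are in capitals, and the sequences run 5′ to 3′ along the coding strand.

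Fcer1g, ITAM, from codon 65, split by an intron: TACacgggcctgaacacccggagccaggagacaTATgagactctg

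Tyrobp, ITAM, from codon 92, split by an intron: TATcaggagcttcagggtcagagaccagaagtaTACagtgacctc

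Fcgr2b, ITIM, from codon 317, chr1:170961071-170961088, minus strand: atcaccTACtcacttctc

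Lilrb4a, ITIM, from codon 298, chr10:51496021-51496038, plus strand: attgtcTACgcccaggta

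Lilrb4a, ITIM, from codon 320, chr10:51496194-51496211, plus strand: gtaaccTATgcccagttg

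Pirb, ITIM, from codon 792, chr7:3712786-3712803, minus strand: gtgaccTATgcccagctg

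Sirpa, ITIM, from codon 434, chr2:129629954-129629971, plus strand: atcacaTACgcagacctg

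The tails of Fcgr1, Fcgr3 and Fcgr4 held no match to either pattern. Pirb and Sirpa each held 3 matches to the ITIM pattern, of which 1 each is printed, Lilrb4a held 2 and Fcgr2b 1. The coding sequence of Lilr4b, although 96.0% identical to that of Lilrb4a over 910 aligned bases, held no match. Between Fcgr2b and Fcgr3, which encode receptors of opposite sign, 83.7% of 787 aligned coding bases were identical.

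Library depth, as reads assigned to genes, ranged from 16113306 to 20981829, and 3 counts corresponded to 0.143 to 0.210 CPM (counts scaled to a common depth with edgeR's TMM factors). Library ΔTAD 1 stood apart, with 11% of its counts on the single gene CT010467.1 against 0.303% to 1.16% in the other 8 libraries. The calls of the 10 genes and of the gene lists were also computed without it, whereas levels, ratios and correlations include it. Cebpd itself was at 6.51 ± 0.674 CPM in wild-type cells, 5.44 ± 0.201 in knock-out cells and 5.44 ± 0.669 in ΔTAD macrophages (SD, n = 3 each) and was not called. The deletions leave most of its transcript in place, so these levels do not check the edit. Of 11 macrophage markers 8 were tested, with Lyz2, Cd14 and Cd68 the highest, while Cd163 had no count in any library and Mertk and Mrc1 did not reach the filter. The 7 markers of mast cells and basophils had 0 counts in all libraries, no marker of B cells exceeded 3 counts and none of NK and T cells exceeded 7. Markers of neutrophils summed to between 0.490 and 1.48 CPM.

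Compared to wild-type macrophages, 8 of the 10 genes were higher in knock-out macrophages and Fcgr1 was lower, at a Benjamini-Hochberg adjusted p under 0.01 in edgeR's quasi-likelihood test over all genes. Fcgr3 did not pass. Of all genes tested, 22.8% were called higher and 22.4% lower in this comparison, 45.2% in all. In ΔTAD macrophages 6 of the 10 genes were higher and 4 were lower than in wild-type macrophages, beside 26.3% and 23.4% of all genes tested (49.7% in all). Between knock-out and ΔTAD macrophages 4 genes were higher and 4 were lower in knock-out cells, and Fcgr2b and Pirb did not pass, beside 13.9% and 19.1% of all genes tested (33% in all). As a median, the log2 fold change of the 10 genes was 0.49 for knock-out and 0.38 for ΔTAD macrophages, beside −0.00 for all genes tested in either comparison. Both comparisons use the same wild-type libraries, so they are not independent. With scaling by library size alone, 39.6% instead of 52.9% of all calls were higher in ΔTAD than in wild-type cells, and 69% instead of 42.1% were higher in knock-out than in ΔTAD cells, while of the 10 genes 6 were still higher and 4 lower in ΔTAD cells and 4 higher and 2 lower in knock-out against ΔTAD cells. Without library ΔTAD 1 the counts against wild-type were the same, 6 higher and 4 lower in ΔTAD cells. Between knock-out and ΔTAD cells 3 instead of 4 genes were then lower, as Fcgr4 did not pass. These are levels in bulk RNA, in which a change in a share of the cells cannot be told apart from a change in every cell.

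**Figure D1:**
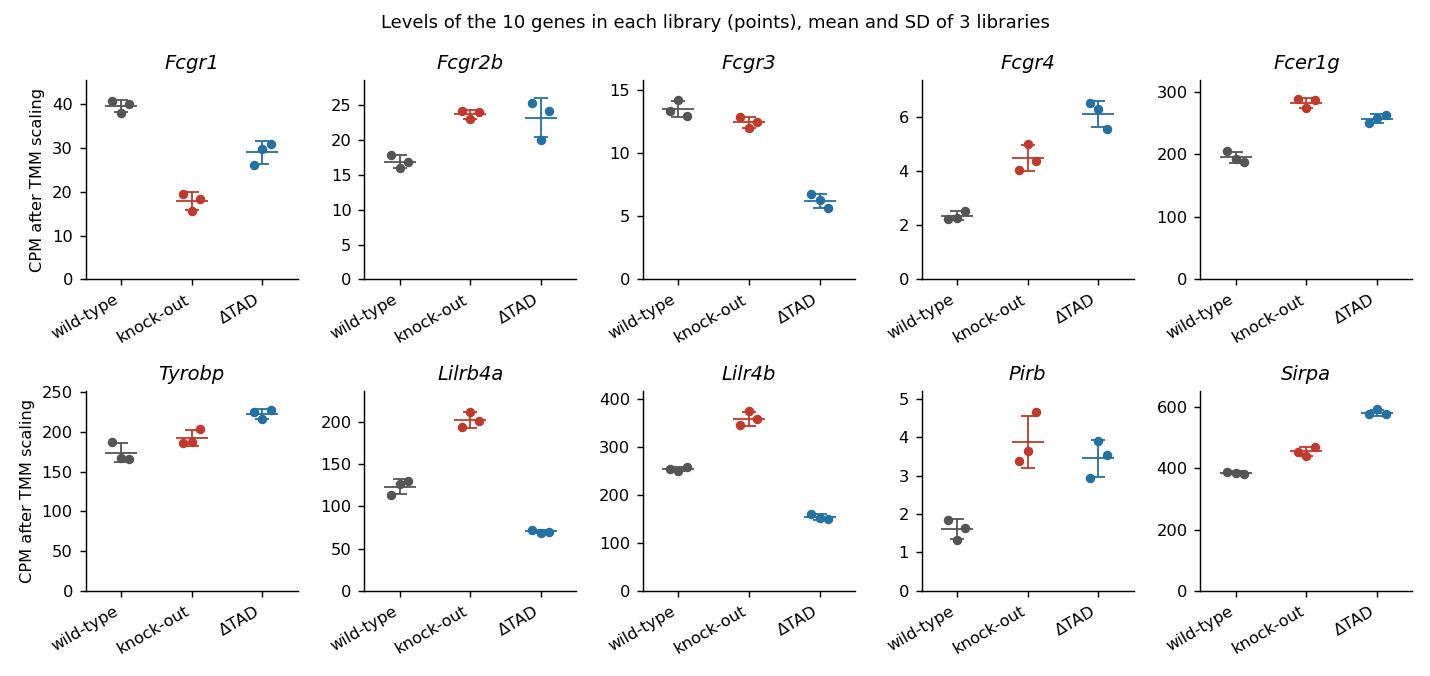
Level of each of the 10 genes (vertical axis, CPM after TMM scaling, starting at 0) in wild-type, knock-out and ΔTAD macrophages. Points are the 3 libraries of a genotype, and bars give their mean and SD. Lilrb4a and Lilr4b are highest in knock-out and lowest in ΔTAD libraries, Fcgr1 is lower in all 6 edited libraries, and Fcgr3 is low only in the 3 ΔTAD libraries.

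Fcgr1 (ENSMUSG00000015947, chr3:96282909-96293969, minus strand of GRCm38) encodes the high-affinity IgG receptor CD64. Its level was 40.53, 37.97 and 39.97 CPM in wild-type, 19.5, 15.6 and 18.4 CPM in knock-out and 26.1, 29.7 and 30.9 CPM in ΔTAD libraries. The 3 genotypes did not overlap, with wild-type libraries highest and knock-out libraries lowest. Against wild-type cells this amounted to a log2 fold change of −1.14 for knock-out macrophages (SE 0.0746, edgeR quasi-likelihood test, Benjamini-Hochberg adjusted p = 2.24e-12) and of −0.44 for ΔTAD macrophages (SE 0.0687, adjusted p = 5.58e-06, the same test). The difference between both edited genotypes was itself called, at a log2 fold change of −0.70 in knock-out against ΔTAD cells (SE 0.0774, adjusted p = 1.00e-07, Benjamini-Hochberg adjustment of edgeR's quasi-likelihood test). Fcgr1 was the only one of the 10 genes called lower in both edited genotypes. It stands beside a cluster of histone genes, and of its 16 tested neighbours within 100 kb only Hist2h3b (log2 fold change −0.23) and the low-abundance Gm24830 (−0.99) were called lower in knock-out cells, and none was called higher.

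Fcgr3 (ENSMUSG00000059498, chr1:171051174-171064935, minus strand) encodes the low-affinity activating receptor CD16. Wild-type libraries held 13.3, 14.2 and 12.9 CPM, knock-out libraries 12.86, 11.96 and 12.41 CPM, and ΔTAD libraries 6.72, 6.29 and 5.62 CPM. The ΔTAD libraries lay below all others, at less than 7 CPM. Against wild-type cells, ΔTAD macrophages showed a log2 fold change of −1.13 (SE 0.0959, edgeR quasi-likelihood test, Benjamini-Hochberg adjusted p = 2.62e-10), whereas that of knock-out macrophages was −0.12 (SE 0.0848, adjusted p = 0.264, the same test). Knock-out against ΔTAD cells differed by a log2 fold change of 1.01 (SE 0.0975, edgeR quasi-likelihood test, Benjamini-Hochberg adjusted p = 1.03e-08).

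Fcgr4 (ENSMUSG00000059089, chr1:171018920-171029761, plus strand) encodes the activating receptor FcγRIV, which binds IgG2a and IgG2b. It was a low-abundance gene, with 45, 39 and 42 counts in wild-type, 77, 83 and 77 in knock-out and 93, 131 and 117 in ΔTAD libraries. These correspond to 2.24, 2.26 and 2.54 CPM, to 4.06, 5.02 and 4.36 CPM and to 6.51, 6.29 and 5.57 CPM. Wild-type libraries were lowest and ΔTAD libraries highest, and no libraries of different genotypes overlapped. Fcgr4 rose by a log2 fold change of 0.93 against wild-type cells for knock-out (SE 0.158, adjusted p = 2.09e-05) and 1.38 for ΔTAD macrophages (SE 0.148, adjusted p = 1.70e-08, both Benjamini-Hochberg adjusted in edgeR's quasi-likelihood fit). That between the edited genotypes, −0.45 (SE 0.130), passed with an adjusted p of 0.00714 after Benjamini-Hochberg adjustment of edgeR's quasi-likelihood test. This last call was lost under 9 of 17 alternative settings, with adjusted p-values of up to 0.0459 and, without library ΔTAD 1, of 0.0380.

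Fcgr2b (ENSMUSG00000026656, chr1:170958617-170976547, minus strand), the gene of the inhibitory IgG receptor, was higher in both edited genotypes. The libraries held 17.80, 15.97 and 16.77 CPM in wild-type, 24.1, 22.9 and 23.9 CPM in knock-out and 25.32, 19.98 and 24.18 CPM in ΔTAD cells. All 6 edited libraries lay above the wild-type libraries, and the edited genotypes overlapped. The rise of Fcgr2b was 0.49 on the log2 scale against wild-type cells for knock-out (SE 0.0816, adjusted p = 1.66e-05) and 0.45 for ΔTAD macrophages (SE 0.0815, adjusted p = 4.56e-05, both Benjamini-Hochberg adjusted in edgeR's quasi-likelihood fit). Knock-out and ΔTAD macrophages differed by 0.04 on the log2 scale (SE 0.0773, edgeR quasi-likelihood test, Benjamini-Hochberg adjusted p = 0.693).

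Fcgr2b, Fcgr4 and Fcgr3 lie next to each other on chromosome 1, within a stretch that also holds Fcer1g, and their changes went in different directions. In ΔTAD cells Fcgr4 rose and Fcgr3 fell although the genes are adjacent, and in knock-out cells Fcgr2b and Fcgr4 rose while Fcgr3 did not pass. Of the other tested genes within 100 kb of Fcgr2b, Dusp12 was called lower, at −0.25 (log2 fold change) in both edited genotypes, and Atf6 was not called, at −0.03 for knock-out and −0.01 for ΔTAD cells. The 918 tested genes of chromosome 1 had medians of 0.03 for knock-out and −0.06 for ΔTAD macrophages. Near Fcer1g, Ppox (0.52 for knock-out and 0.42 for ΔTAD cells) and Usp21 (0.44 and 0.63) were called higher in both. Tomm40l was called lower in knock-out cells only, and B4galt3 and Gm20045 in ΔTAD cells only. Around all 10 genes together, 53 other tested genes start within 100 kb. Of these, 6 were called higher and 9 lower in knock-out cells, beside 22.8% and 22.4% of all genes tested. In ΔTAD cells 7 were called higher and 9 lower, beside 26.3% and 23.4%.

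**Figure D2:**
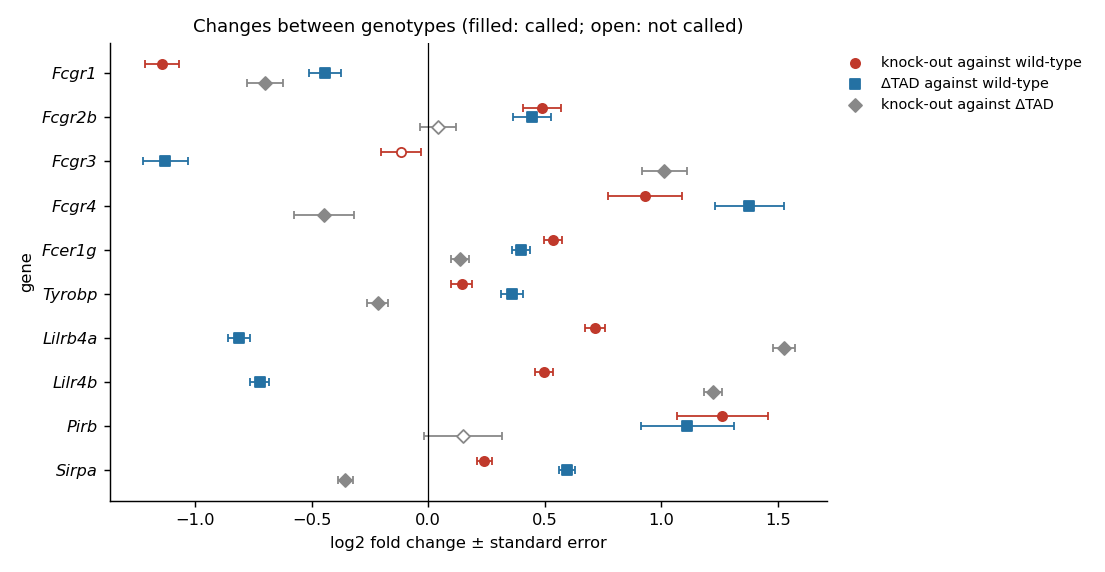
Log2 fold change (horizontal axis) with its standard error for each of the 10 genes in the 3 comparisons. Filled symbols passed an adjusted p of 0.01 and open symbols did not. Lilrb4a and Lilr4b lie on opposite sides of 0 in knock-out and ΔTAD cells, at 0.71 against −0.81 and at 0.50 against −0.72.

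The bases upstream of the annotated start were compared because C/EBP factors and PU.1 (encoded by Spi1) bind promoters of myeloid genes. RefSeq promoters of GRCm38 were given for 7 of the 10 genes, in windows of 250 bases before to 50 bases after the start, and Tyrobp, Lilrb4a and Sirpa had no entry. On both strands, TTNNGNAA was searched as a core of C/EBP sites, CCAAT as the CCAAT box and GAGGAA as a core of PU.1 sites. The C/EBP core was in 40.7%, the CCAAT box in 37.4% and the PU.1 core in 28.3% of all 32851 promoters of this length. The 150 bases before the start are shown for the 3 activating receptors and for Lilr4b, whose changes differed most between the genotypes, 5′ to 3′ along the strand of the gene, with matches to the C/EBP and PU.1 cores of either strand in capitals. The RefSeq start used for Fcgr3 lies inside the gene as GENCODE draws it.

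Fcgr1, chr3:96293970-96294119, minus strand: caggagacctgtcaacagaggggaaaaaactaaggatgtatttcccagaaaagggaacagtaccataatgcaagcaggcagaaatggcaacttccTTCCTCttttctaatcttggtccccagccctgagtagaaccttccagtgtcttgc

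Fcgr3, chr1:171059404-171059553, minus strand: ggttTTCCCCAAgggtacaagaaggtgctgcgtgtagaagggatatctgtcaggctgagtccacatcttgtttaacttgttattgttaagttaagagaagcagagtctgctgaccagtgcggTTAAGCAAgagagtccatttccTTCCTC

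Fcgr4, chr1:171018776-171018925, plus strand: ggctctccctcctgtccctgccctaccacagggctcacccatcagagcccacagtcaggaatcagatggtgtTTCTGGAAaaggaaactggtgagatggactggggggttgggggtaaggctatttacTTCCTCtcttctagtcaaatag

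Lilr4b, chr10:51480462-51480611, plus strand: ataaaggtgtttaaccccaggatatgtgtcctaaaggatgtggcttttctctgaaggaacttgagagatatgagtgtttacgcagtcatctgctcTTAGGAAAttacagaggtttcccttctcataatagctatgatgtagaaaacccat

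The PU.1 core lay upstream of all 3 activating receptor genes, read on the opposite strand as TTCCTC. The window of Pirb, an inhibitory receptor gene, held 3 matches to this core, and that of Lilr4b held none. The C/EBP core was found in the windows of Fcgr3 (2 matches), Fcgr4 (1), Lilr4b (1) and Pirb (2) and not in those of Fcgr1, Fcgr2b and Fcer1g. The windows of Fcgr2b and Fcer1g held none of the 3 motifs, and no window held a CCAAT box. That of Fcgr2b lies inside the annotated gene and largely in exon sequence. Every gene with a promoter window was called in ΔTAD against wild-type cells, with or without the C/EBP core. In that comparison the matches therefore cannot be set against genes that did not change. Of the genes with a window, Fcgr3 was not called in knock-out against wild-type cells. Fcgr2b and Pirb were not called between the edited genotypes. A link between this core and the changes was not tested in any comparison. Both motifs are frequent among all promoters, and a match describes these letters only. Spi1 itself, at 117 ± 4.96 CPM in wild-type macrophages (SD, n = 3), was at 143 ± 2.57 CPM in knock-out (SD, n = 3) and 203 ± 6.16 CPM in ΔTAD macrophages (SD, n = 3).

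To set the activating receptors beside the inhibitory one, levels were divided by the length of the exons (CPM per kb), since counts grow with length. In wild-type macrophages Fcgr1 held 15.3 ± 0.521, Fcgr3 7.76 ± 0.377, Fcgr2b 2.91 ± 0.158 and Fcgr4 1.87 ± 0.135 CPM per kb (SD, n = 3 each). In knock-out macrophages Fcgr3 (7.15 ± 0.259 CPM per kb) and Fcgr1 (6.89 ± 0.760) were within 1 SD of each other, followed by Fcgr2b (4.09 ± 0.114) and Fcgr4 (3.57 ± 0.389; SD, n = 3 each). In ΔTAD macrophages Fcgr1 led with 11.2 ± 0.970 CPM per kb, and Fcgr4 (4.87 ± 0.391), Fcgr2b (4.0 ± 0.486) and Fcgr3 (3.58 ± 0.319) followed, the last pair within its spread (SD, n = 3 each). The order below Fcgr1 depends on the length used. Divided by the longest coding transcript, Fcgr2b stood at 6.53 ± 0.794 CPM per kb in ΔTAD macrophages, above Fcgr4 (4.87 ± 0.391) and Fcgr3 (4.61 ± 0.412), which were then within their spread (SD, n = 3 each). In knock-out macrophages that length placed Fcgr3 (9.22 ± 0.334) above Fcgr1 (6.89 ± 0.760) and Fcgr2b (6.67 ± 0.187; SD, n = 3 each). In wild-type cells Fcgr4 was the lowest of the 4 by either length.

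The summed level of the 3 activating receptors was 24.9 ± 0.241 CPM per kb in wild-type cells, 17.6 ± 0.624 in knock-out cells and 19.6 ± 0.484 in ΔTAD macrophages (SD, n = 3 each). The share of Fcgr1 in this sum was 61.3% in wild-type cells, 39.1% in knock-out cells and 56.9% in ΔTAD macrophages, that of Fcgr3 was 31.2%, 40.6% and 18.2%, and that of Fcgr4 was 7.52%, 20.3% and 24.9%. Both edited genotypes had a lower sum and a larger Fcgr4 share. The share of Fcgr1 was lowest in knock-out cells and that of Fcgr3 was lowest in ΔTAD cells. The ratio of the activating sum to Fcgr2b was 8.56 ± 0.380 in wild-type cells, 4.31 ± 0.0390 in knock-out cells and 4.97 ± 0.762 in ΔTAD macrophages (SD, n = 3 each), a description for which no test was made. Per longest coding transcript it was 5.71 ± 0.274, 2.95 ± 0.0278 and 3.20 ± 0.486 (SD, n = 3 each). By exon length it lay between 8.17 and 8.93 in wild-type libraries and between 4.28 and 5.82 in the 6 edited libraries.

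**Figure D3:**
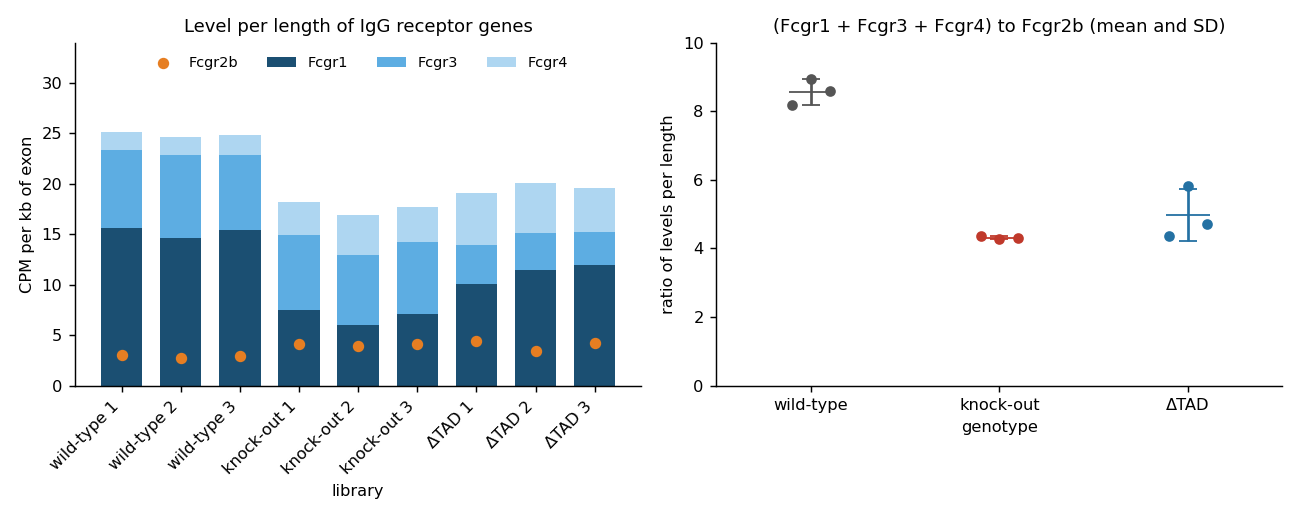
Left, level per length (CPM per kb of exon) of Fcgr1, Fcgr3 and Fcgr4, stacked for each library, with Fcgr2b as a point. Right, ratio of the stacked sum to Fcgr2b in each library with the mean and SD of each genotype. Wild-type libraries lie at 8.17 or above and all edited libraries at 5.82 or below.

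Fcer1g (ENSMUSG00000058715, chr1:171229572-171234365, minus strand) encodes the FcRγ chain, on which the activating IgG receptors depend for signalling. Its level was 205, 192 and 188 CPM in wild-type, 288, 273 and 286 CPM in knock-out and 249.4, 257.9 and 263.2 CPM in ΔTAD libraries. The genotypes did not overlap, and wild-type libraries were lowest. On the log2 scale Fcer1g rose by 0.53 against wild-type cells for knock-out (SE 0.0390, adjusted p = 1.80e-11) and 0.40 for ΔTAD macrophages (SE 0.0390, adjusted p = 3.40e-09, both Benjamini-Hochberg adjusted in edgeR's quasi-likelihood fit). The difference of 0.14 between knock-out and ΔTAD cells (SE 0.0387) passed with an adjusted p of 0.00568 after Benjamini-Hochberg adjustment of edgeR's quasi-likelihood test and was lost under 4 of 17 alternative settings, at up to 0.0335. Per length, Fcer1g stood at 8.97 ± 0.343 times the activating sum in wild-type cells, 18.4 ± 0.195 times in knock-out cells and 14.99 ± 0.338 times in ΔTAD macrophages (SD, n = 3 each).

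Tyrobp (ENSMUSG00000030579, chr7:30413760-30417585, plus strand), the DAP12 gene, held 188, 167 and 166 CPM in wild-type, 186, 187 and 203 CPM in knock-out and 225, 216 and 228 CPM in ΔTAD libraries. The ΔTAD libraries lay above all others, while those of knock-out and wild-type cells overlapped. The ΔTAD macrophages exceeded wild-type cells by 0.36 on the log2 scale (SE 0.0453, edgeR quasi-likelihood test, Benjamini-Hochberg adjusted p = 2.33e-07). The excess of knock-out macrophages, 0.14 (SE 0.0455), passed narrowly, with an adjusted p of 0.00968 after Benjamini-Hochberg adjustment of edgeR's quasi-likelihood test. It did not pass under 9 of 17 alternative settings, at up to 0.118 without knock-out library 3. Knock-out against ΔTAD cells gave −0.22 (SE 0.0452, edgeR quasi-likelihood test, Benjamini-Hochberg adjusted p = 0.000416), a call lost with scaling by library size alone (−0.14, adjusted p = 0.0808). Tyrobp (260 ± 18.3 CPM per kb) and Fcer1g (223 ± 9.90) had the highest levels per length in wild-type cells, where Pirb had the lowest (0.359 ± 0.0578; SD, n = 3 each). Divided by the longest coding transcript, Tyrobp (291 ± 20.4 CPM per kb) and Fcer1g (285 ± 12.7) were within their spread in wild-type cells (SD, n = 3 each). As a mean over all libraries, that length put Fcer1g first, at 358 against 328 CPM per kb for Tyrobp. By exon length Tyrobp was first over all libraries, at 294 against 280 CPM per kb for Fcer1g.

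Lilrb4a (ENSMUSG00000112148, chr10:51490956-51496611, plus strand), which encodes an inhibitory receptor also known as gp49B, went in opposite directions in the edited genotypes. It held 113, 126 and 130 CPM in wild-type, 193, 212 and 201 CPM in knock-out and 72.4, 68.9 and 69.2 CPM in ΔTAD libraries. No libraries of different genotypes overlapped. Lilrb4a had a log2 fold change of 0.71 against wild-type cells for knock-out (SE 0.0432, adjusted p = 5.31e-13) and −0.81 for ΔTAD macrophages (SE 0.0464, adjusted p = 1.48e-13, both Benjamini-Hochberg adjusted in edgeR's quasi-likelihood fit). Knock-out exceeded ΔTAD cells by 1.53 (SE 0.0454, edgeR quasi-likelihood test, Benjamini-Hochberg adjusted p = 1.73e-18), a fold change of 2.88 and the largest difference among the 10 genes.

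Lilr4b (ENSMUSG00000112023, chr10:51480632-51486703, plus strand), its neighbour and close relative known as gp49A, held 254, 251 and 259 CPM in wild-type, 346, 375 and 358 CPM in knock-out and 161, 152 and 150 CPM in ΔTAD libraries. Its genotypes kept the order of Lilrb4a and did not overlap. For Lilr4b the log2 values were 0.50 against wild-type cells for knock-out (SE 0.0385, adjusted p = 5.50e-11) and −0.72 for ΔTAD macrophages (SE 0.0393, adjusted p = 5.49e-14, both Benjamini-Hochberg adjusted in edgeR's quasi-likelihood fit). Knock-out against ΔTAD cells gave 1.22 (SE 0.0393, edgeR quasi-likelihood test, Benjamini-Hochberg adjusted p = 8.87e-18). Summing the counts of both genes gave log2 fold changes of 0.58 for knock-out and −0.75 for ΔTAD macrophages, and 1.33 between them. Lilr4b made up 67.4 ± 1.52% of the summed counts in wild-type cells, 64.0 ± 0.104% in knock-out cells and 68.8 ± 0.271% in ΔTAD macrophages (SD, n = 3 each).

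The counts of this pair need a limit beside them. Of the distinct stretches of 50 bases (the read length) in all annotated transcripts of Lilrb4a, 47.2% also occur in transcripts of other genes, and 24.5% do for Lilr4b. The annotated read-through gene Gm49339 runs over both genes on the same strand and covers 1326 of the 1381 bases (96.0%) of the longest coding transcript of Lilrb4a, but only 6.64% of that of Lilr4b. Its transcripts hold 33.7% of the Lilrb4a stretches and 12.5% of the Lilr4b stretches. Lilr4b holds 26.1% of the Lilrb4a stretches, and Lilrb4a holds 24.1% of those of Lilr4b. The 47.2% is thus not all sequence shared with a relative at another place. Gm49339 itself had between 0 and 1 counts per library. Reads that lie in exons of both genes are left uncounted by the default mode of HTSeq, and neither the mode nor the strand setting is given in the sources used here. Under that mode the Lilrb4a counts would come mostly from exon bases outside its coding transcript, and the effect on the fold changes was not tested. For this reason the level of Lilrb4a per length is not compared with that of other genes.

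**Figure D4:**
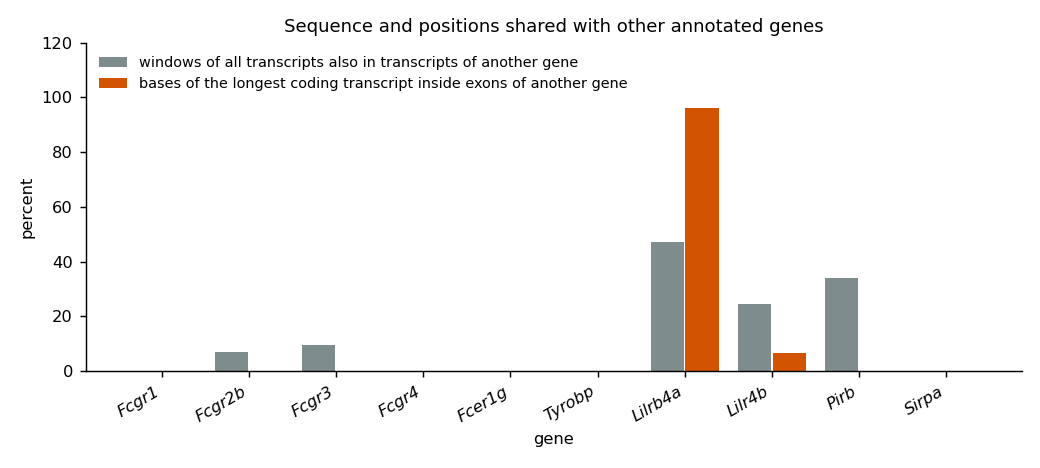
For each of the 10 genes, the percent of distinct stretches of 50 bases in its transcripts that also occur in transcripts of another gene (grey), and the percent of bases of its longest coding transcript inside exons of another gene (orange). Lilrb4a stands out with 47.2% and 96.0%, Pirb has 34% and 0%, and 5 genes (Fcgr1, Fcgr4, Fcer1g, Tyrobp and Sirpa) have 0% in both. Both Lilrb4a values include the read-through gene Gm49339, which lies over the same positions.

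Pirb (ENSMUSG00000058818, chr7:3711409-3720391, minus strand) encodes an inhibitory receptor for MHC class I and for Nogo. It was the lowest of the 10 genes, with 37, 23 and 27 counts in wild-type, 64, 60 and 82 in knock-out and 42, 81 and 74 in ΔTAD libraries, or 1.84, 1.33 and 1.63 CPM, 3.37, 3.63 and 4.65 CPM and 2.94, 3.89 and 3.52 CPM. The edited genotypes overlapped each other and lay above wild-type. Pirb rose by log2 fold changes of 1.26 against wild-type cells for knock-out (SE 0.196, adjusted p = 5.95e-06) and 1.11 for ΔTAD macrophages (SE 0.198, adjusted p = 3.28e-05, both Benjamini-Hochberg adjusted in edgeR's quasi-likelihood fit), and 0.15 between them (SE 0.167, adjusted p = 0.494, the same test). Of its stretches of 50 bases 34% occur in other genes, mostly activating Pira-type relatives such as Gm14548 (17.7%) and Pira2 (16.8%). Reads that fit several places were not counted, so Pirb may have lost reads in these stretches. The neighbour Gm15922, which holds 13.2% of these stretches, was also called higher in knock-out cells, with a log2 fold change of 2.36, at 2 to 16 counts per library. The Pira-type relatives were near the detection limit, for example Pira2 with between 0 and 6 counts per library.

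Sirpa (ENSMUSG00000037902, chr2:129592835-129632228, plus strand) encodes SIRPα, which binds CD47 and delivers the signal that restrains phagocytosis of CD47-bearing cells. Its level was 389, 386 and 380 CPM in wild-type, 454, 440 and 470 CPM in knock-out and 576, 593 and 576 CPM in ΔTAD libraries. The genotypes did not overlap and ΔTAD libraries were highest. Sirpa rose by 0.24 on the log2 scale against wild-type cells for knock-out (SE 0.0335, adjusted p = 1.19e-06) and 0.60 for ΔTAD macrophages (SE 0.0336, adjusted p = 1.10e-13, both Benjamini-Hochberg adjusted in edgeR's quasi-likelihood fit). Knock-out against ΔTAD cells gave −0.35 (SE 0.0334, edgeR quasi-likelihood test, Benjamini-Hochberg adjusted p = 7.29e-09). None of its stretches of 50 bases occurs in another gene.

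The 10 genes fall into sets by their pattern over the genotypes. Fcgr2b, Fcgr4, Fcer1g, Tyrobp, Pirb and Sirpa were called higher than wild-type in both edited genotypes, Fcgr1 lower in both, and Lilrb4a and Lilr4b higher in knock-out and lower in ΔTAD cells, while Fcgr3 was lower in ΔTAD cells and not called in knock-out cells. Of the former set, Fcgr4, Tyrobp and Sirpa were higher in ΔTAD than in knock-out cells and Fcer1g was higher in knock-out cells. The inhibitory receptor genes Fcgr2b, Pirb and Sirpa rose in both genotypes, while Lilrb4a did so only in knock-out cells and fell in ΔTAD cells.

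The genes outside the lists whose log2 CPM was most like that of Lilrb4a over the 9 libraries were Rasal2 (Pearson r = 0.996), Spp1 (0.995) and Etv1 (0.995), given as a description. For Spp1, the gene of osteopontin, the log2 fold changes were 0.56 for knock-out and −0.52 for ΔTAD cells. For Fcgr2b they were Klhl33 (r = 0.977), 2310061I04Rik (0.970) and Cmtm3 (0.969), and for Sirpa they were Pltp (0.996), Sdhc (0.995) and Daglb (0.995). All 9 points share 3 genotype means and the same libraries.

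Markers of neighbouring cell states also moved with the genotypes. The summed level of the osteoclast markers was 181 to 201 CPM in wild-type, 321 to 327 CPM in knock-out and 1681 to 1741 CPM in ΔTAD libraries, of which 7 of 9 were tested. In knock-out cells 5 were called higher and Ocstamp lower (−1.73), and in ΔTAD cells 4 were called higher and Dcstamp lower (−0.58, against 0.82 in knock-out cells). Without library ΔTAD 1 these counts were 5 and 3 higher. Most of the ΔTAD sum came from Ctsk, the gene of cathepsin K, at 1545 against 56.3 CPM in wild-type cells, while Calcr had at most 1 count in any library. The summed macrophage markers ranged from 3253 to 3458 CPM in wild-type, 4370 to 4743 CPM in knock-out and 6867 to 7016 CPM in ΔTAD libraries, with Lyz2 as the largest part. Itgax, the gene of CD11c, was at 15.2 CPM in wild-type and 6.91 and 5.76 CPM in knock-out and ΔTAD cells. The part of these shifts in the values of the 10 genes was not tested.

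Among 13 other Fc receptor genes only 3 were tested and 7 had no count in any library. Fcgrt, which encodes the neonatal Fc receptor that recycles IgG, was at 3.93 ± 0.219 CPM in wild-type cells, 9.003 ± 0.455 in knock-out cells and 10.7 ± 0.689 in ΔTAD macrophages (SD, n = 3 each). Its log2 fold changes were 1.20 and 1.46, and both were called, as were 45.2% and 49.7% of all genes in these comparisons. Fcrl1 was lower in knock-out cells, with a log2 fold change of −0.46.

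Of 29 receptors that couple to DAP12 or FcRγ, 23 symbols matched and 15 were tested. In knock-out macrophages 6 were called higher and 4 lower, and in ΔTAD macrophages 7 higher and 6 lower, with medians of 0.18 and 0.43. Trem2, the phagocytic receptor that signals through DAP12, rose by log2 fold changes of 0.94 for knock-out and 1.14 for ΔTAD cells, and Cd200r4 with 1.48 and 1.94. Siglec15 was near the detection limit in wild-type cells, at 0.189 ± 0.0997 CPM, and at 1.34 ± 0.365 in knock-out and 2.02 ± 0.355 in ΔTAD cells (SD, n = 3 each). Trem3 fell with −3.97 and −3.88 and Treml4 with −3.13 and −3.68. Trem1, which amplifies inflammatory signalling, was at 4.05 ± 0.0646 CPM in wild-type macrophages and near the detection limit in the edited ones, with 1 to 5 counts per library (0.0767 ± 0.0382 and 0.198 ± 0.0498 CPM; SD, n = 3 each). Clec4e, the FcRγ-coupled receptor Mincle, followed the pattern of Lilrb4a, with 0.70 in knock-out and −0.15 in ΔTAD cells, both called.

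Of 21 genes listed as other ITIM receptors 15 were tested. Their coding sequences were not searched for the motif. The listing thus does not show that each of them, such as Siglec1 or Slamf8, carries an ITIM. In knock-out cells 6 were higher and 5 lower, beside 22.8% and 22.4% of all genes, and in ΔTAD cells 8 were higher and 7 lower, beside 26.3% and 23.4% (6 and 7 without library ΔTAD 1). Clec12a rose from 9.07 CPM in wild-type to 36.1 and 63.8 CPM in knock-out and ΔTAD cells, with log2 fold changes of 1.99 and 2.81, and Clec4a2 (1.19 and 1.84) and Cd300a (1.0 and 1.58) rose with it. Pecam1, an adhesion receptor, fell from 2.29 ± 0.336 CPM in wild-type to 0.581 ± 0.0983 in knock-out and 0.166 ± 0.0384 in ΔTAD cells (SD, n = 3 each), where it had 3 counts in every library. Siglec1 fell with log2 fold changes of −1.04 and −1.63 and Slamf8 with −1.31 and −0.82. Lair1 was called lower in ΔTAD cells (−0.37) and was at 0.03 in knock-out cells.

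Among the genes that carry the signal from ITAMs, 34 of 35 were tested, of which 20 were higher and 5 lower in knock-out and 18 higher and 3 lower in ΔTAD macrophages, with a median log2 fold change of 0.24 and 0.19. Over all genes 22.8% were higher and 22.4% lower in knock-out and 26.3% and 23.4% in ΔTAD macrophages, with medians of −0.00, which apply to the other lists as well. Src, a kinase that phosphorylates ITAMs, was at 1.14 for knock-out and 0.52 for ΔTAD cells (log2 fold change), the adaptor Blnk at 0.99 and 1.32, and Syk, which binds the phosphorylated ITAM, at 0.37 and 0.41, all called higher. Akt1 fell with −0.72 and −0.45 and Lyn with −0.19 in both.

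Of 18 genes of inhibitory signalling 11 were higher and 5 lower in knock-out and 10 higher and 5 lower in ΔTAD cells, with medians of 0.19 and 0.15. Ptpn6, which encodes the phosphatase SHP-1 that docks on ITIMs, rose with 0.39 and 0.65, and Dok3 with 0.66 and 0.54. Inpp5d, which encodes the phosphatase SHIP1 used by FcγRIIB, was lower in knock-out cells (−0.17) and at −0.07 in ΔTAD cells, where it was not called. Ptpn22 went in opposite directions, with 0.29 in knock-out and −0.41 in ΔTAD cells.

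Of 48 genes of the phagocytic cup 44 were tested, of which 18 were higher and 8 lower in knock-out and 22 higher and 7 lower in ΔTAD macrophages, with medians of 0.08 and 0.15. The phospholipase gene Pld2 rose with 1.30 and 1.18 and the myosin gene Myo10 with 1.16 and 0.49, and the small GTPase gene Arf6 fell with −0.82 and −0.81. Scin, which encodes an actin-severing protein, was at 2.00 ± 0.342 CPM in wild-type macrophages and had only 1 or 2 counts in each edited library. Ligands of these receptors were tested for 9 of 19 genes, and the other 10, the immunoglobulin genes among them, did not reach the filter. Of those tested, 6 were higher and 1 lower in knock-out cells and 7 higher and 2 lower in ΔTAD cells. Cd47, the ligand of SIRPα, was at 55.0 ± 2.13 CPM in wild-type cells, 80.9 ± 3.71 in knock-out cells and 90.5 ± 1.60 in ΔTAD macrophages (SD, n = 3 each), with log2 fold changes of 0.55 and 0.72, so that receptor and ligand were both called higher in both edited genotypes. The MHC class I genes H2-K1 (1.06 and 1.36) and H2-D1 (0.91 and 1.33), whose products bind the Pirb product, rose as well, and Angptl2 fell with −0.49 and −1.56. Between the edited genotypes, 7 genes of ITAM signalling were higher and 15 lower in knock-out than in ΔTAD cells, 5 and 3 of inhibitory signalling, 8 and 15 of the phagocytic cup, 3 and 5 adaptor-coupled receptors, 4 and 7 ITIM receptors, 1 and 6 ligands and 0 and 1 of the other Fc receptors, beside 13.9% and 19.1% of all genes tested. Without library ΔTAD 1 these counts were 10 and 13 for ITAM signalling, 5 and 2 for inhibitory signalling, 10 and 11 for the phagocytic cup, 3 and 4 for adaptor-coupled receptors, 3 and 7 for ITIM receptors, 1 and 4 for ligands and 0 and 1 for the other Fc receptors.

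**Figure D5:**
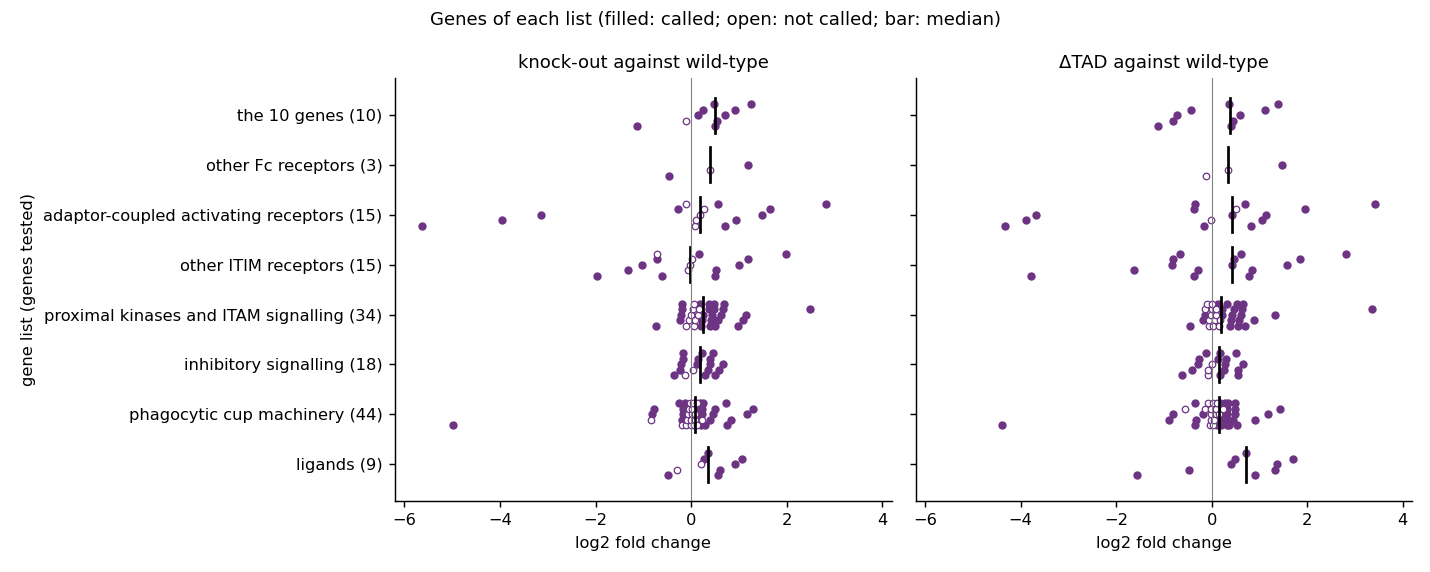
Log2 fold change (horizontal axis) of each tested gene in the gene lists, for knock-out (left) and ΔTAD (right) against wild-type macrophages. Each point is 1 gene, filled where called, and the bar is the median of the list. Genes of ITAM and inhibitory signalling crowd near 0, with medians of 0.24 and 0.19 in knock-out cells, whereas single receptors lie far out. Fitted values of genes at or under 3 counts in a group depend on the prior count.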

How the data were processed

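RNA of 9 unstimulated RAW264.7 cultures (3 genotypes, 3 libraries each) was sequenced after ribosomal RNA depletion as single-end reads of 50 bases. The authors deposited HTSeq read counts per Ensembl gene, 1 list per library, made from Hisat2 alignments to GRCm38 of reads that Trimmomatic had trimmed. Tool versions differ between the sources used here, and the HTSeq mode and strand setting are not given in them. Reads that fit several places were not counted (11.8% to 16.3% of the tallied reads), so close relatives lose reads where their sequences are shared.

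The 5 tally lines were set aside, and 55487 genes remained. The counts went into edgeR 4.0.16 under R 4.3.3 (filterByExpr with a minimum count of 10, TMM scaling, 1 quasi-likelihood model of all 9 libraries), which left 14312 genes. A gene was called at a Benjamini-Hochberg adjusted p under 0.01 over all of them. The standard error was taken from the fold change and its F statistic. This standard error and the SDs include the spread between libraries. Only the detection limit, set as a number of counts, is restricted to counting error. Levels per length used the summed exons of the GENCODE annotation of GRCm38. Sequences and promoters (RefSeq) were read from the reference files. No pair of libraries of a genotype agreed within sampling noise. On simulated counts for knock-out against wild-type cells, 78% of genes changed by 0.5 and 96% of those changed by 1 on the log2 scale were recovered, none in the wrong direction. In that run 8 unchanged genes were called. For ΔTAD against wild-type cells 82% and 90% were recovered and 2 unchanged genes were called. For knock-out against ΔTAD cells these values were 82%, 95% and 3.

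Groups and replicate numbers came from the sample labels, and the numbers share no stated animal, litter or day. In each list the genes named were the 3 highest and 3 lowest called changes of each comparison, where libraries did not overlap and the higher group reached 1 CPM, or fewer in that order, beside tested neighbours within 100 kb and the 3 genes most correlated with Lilrb4a, Fcgr2b and Sirpa. Syk, Inpp5d and Cd47 fall outside this rule and were named for their roles after their values were seen. A gene that the rule names is not reported here. The members and lists were chosen with earlier results of these data known, so no list is independent support. Alternatives covered scaling (library size alone, DESeq2 1.42.0 size factors), the filter, DESeq2's test, limma-voom (limma 3.58.1), a fit of only the genotypes compared, the thresholds, the replicate block, summed counts of related genes and leaving out each library.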

Additional observations from a re-analysis of the deposited data

Results flagged for a closer look

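For 8 of the 10 genes the change in knock-out macrophages differed from that in ΔTAD macrophages when the difference itself was tested in the shared model, in which the wild-type libraries cancel out. On the log2 scale, the knock-out change minus the ΔTAD change was 1.53 for Lilrb4a, 1.22 for Lilr4b and 1.01 for Fcgr3. It was −0.70 for Fcgr1, −0.45 for Fcgr4, −0.35 for Sirpa, −0.22 for Tyrobp and 0.14 for Fcer1g. Lilrb4a and Lilr4b are the members that were called in opposite directions. Of all genes tested, 33% differed in this comparison. With 3 libraries per genotype, single genes were not searched for a library far from its replicates, although ΔTAD 1 stood apart as a whole.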

How the results depend on the processing

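Against wild-type, the ΔTAD calls of all 10 genes held under the 17 alternatives that kept each gene as its own feature and the same threshold, but not when related genes were summed (given here with the sum). Leaving out 1 library at a time gave 5845 to 6733 calls over all genes for knock-out against wild-type (members 7 to 8 higher, 1 lower), 6454 to 7116 for ΔTAD against wild-type (6 higher, 4 lower) and 3737 to 4816 for knock-out against ΔTAD (3 to 4 higher, 3 to 4 lower). A minimum absolute log2 fold change of 1 left 1096, 1333 and 563 genes, and of the members 1 higher and 1 lower in knock-out cells, 2 higher and 1 lower in ΔTAD cells and 3 higher and 0 lower in knock-out against ΔTAD cells. Library size alone gave 2 members lower in that last comparison. Taken from counts instead of levels per length, the ratio of activating receptors to Fcgr2b was 3.29, 1.47 and 1.803 in wild-type, knock-out and ΔTAD cells, and per longest coding transcript, a choice made after seeing the data, as was leaving ΔTAD 1 out of the list counts, 5.71, 2.95 and 3.20. With Fcgr2b, Fcgr3 and Fcgr4 summed into 1 feature, the log2 fold changes were 0.31, 0.11 and 0.20 in the 3 comparisons, which reverses Fcgr3 against wild-type and Fcgr4 between the edited genotypes by the construction of the sum. The ΔTAD calls of Fcgr2b, Fcgr3 and Fcgr4 against wild-type have no counterpart in the sum (adjusted p = 0.111 in edgeR's quasi-likelihood fit), and the sum passed between the edited genotypes (0.00593), where Fcgr2b alone did not. Between knock-out and ΔTAD cells, where neither was called, Fcgr2b ranged from −0.066 to 0.13 and Pirb from −0.0054 to 0.25 when 1 library was left out. The same replicate numbers did not deviate together (correlations of −0.072 to 0.020), and with them as a replicate block 6279, 6900 and 4465 genes were called, with Tyrobp in knock-out cells (adjusted p = 0.0102 in edgeR's quasi-likelihood fit) and, between the edited genotypes, Fcgr4 (0.0121) and Fcer1g (0.0108) no longer among them. Depth limits Pirb and Fcgr4 most, each with at most 131 counts per library.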

Other observations

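Around the paired receptor genes, several relatives and neighbours were measured near the detection limit. Lilra6, an activating relative of Pirb, had between 0 and 12 counts per library, with means of 0.0736 CPM in wild-type, 0.524 CPM in knock-out and 0.332 CPM in ΔTAD cells, and Gm14548 had between 2 and 13 counts. Gm15922, near Pirb, was at 0.153 CPM in wild-type, 0.793 CPM in knock-out and 0.435 CPM in ΔTAD cells, and was called higher in knock-out cells and not called in ΔTAD cells. Gm40645 had between 9 and 24 counts per library. Hcst, which encodes the adaptor DAP10 and stands beside Tyrobp, was at 2.83 CPM in wild-type, 3.36 CPM in knock-out and 4.02 CPM in ΔTAD cells and was called in no comparison.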
